A study of Mus musculus with 21 samples.

Results

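The genes of the cytosolic heat shock machinery were followed through the bulk RNA-seq of GA-Camk2a mice. The set holds 10 of the 64361 genes in the deposited count table, chosen by their mouse symbols: the HSP70 genes Hspa1a, Hspa1b and Hspa8, the HSP110 gene Hsph1, the HSP90 genes Hsp90aa1 and Hsp90ab1, the J protein genes Dnajb1 and Dnaja1, the small heat shock protein gene Hspb1 and the co-chaperone gene Bag3. All 10 passed the filter on low counts in every comparison. GA-Camk2a mice, named GACamk in the labels, carry a floxed-stop transgene for a GFP-tagged poly-GA dipeptide repeat protein that the Camk2a-Cre driver switches on in excitatory neurons. The controls are labelled ctrl and are called Camk2a controls in the study's figure, and which of the alleles they carry is not given in the labels. The line was kept on a C57BL/6J background and the mice came from a pair of litters. All animals were killed at 30 to 40 weeks, when the transgenic mice reached the humane endpoint. The cortex groups held 5 ctrl and 6 GACamk mice and the hippocampus groups 4 ctrl and 6 GACamk mice, 1 library per mouse and tissue. The study's figure legend gives the control numbers of the tissues the other way round, and the sample labels were followed here. In the libraries labelled hippocampus the summed hippocampal markers were 563 to 775 CPM (counts per 1000000 counts of the library), against 91.7 to 154 CPM in those labelled cortex. In all there were 11 mice, of which 10 gave both tissues.

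Proteins of the HSP70 family hold unfolded stretches of other proteins in cycles driven by ATP. J proteins bring them clients and start ATP hydrolysis, while HSP110 and BAG proteins exchange the nucleotide so that the client is released. HSP90 proteins take over clients such as kinases and steroid receptors late in folding, and small heat shock proteins keep damaged proteins soluble without ATP. Some of these genes, such as Hspa8 and Hsp90ab1, are expressed constitutively at high levels in neurons, whereas Hspa1a and Hspa1b are the classical stress-inducible members, switched on when the heat shock factor Hsf1 binds heat shock elements in their promoters.

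The heat shock element is built from GAA units that alternate in orientation, and the core searched here is a pair of such units, GAANNTTC or TTCNNGAA. Each of these words reads the same on the opposite strand, so a search of 1 strand covers both, and the 2 words overlap where units follow each other. RefSeq promoter windows, which run from 250 bases before to 50 bases after a transcription start in build GRCm38.p6, were found for 7 of the 10 genes. Hspa8, Hsp90aa1 and Hsp90ab1 had no entry. The core occurred in at least 1 window of 6 of the 7 genes and in 7 of their 11 windows, against 15.1% of all 32851 windows. Dnajb1 was the gene without it. The 4 sequences below show the motif in genes of differing expression results, from genes that were lower in GA-Camk2a tissue (Hsph1, Dnaja1), an inducible gene measured near the threshold (Hspa1b) and a gene with estimates above 0 that was called in neither tissue (Hspb1). Capitals mark the motif.
Hsph1, chr5:149636286-149636565, minus strand, up to 30 bases past the start: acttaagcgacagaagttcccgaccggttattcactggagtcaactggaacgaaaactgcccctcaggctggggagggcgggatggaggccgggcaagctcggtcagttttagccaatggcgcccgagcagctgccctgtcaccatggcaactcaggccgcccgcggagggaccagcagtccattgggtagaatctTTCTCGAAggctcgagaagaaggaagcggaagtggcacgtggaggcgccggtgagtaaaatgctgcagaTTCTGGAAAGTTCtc
Hspa1b, chr17:34959239-34959488, minus strand, up to the start: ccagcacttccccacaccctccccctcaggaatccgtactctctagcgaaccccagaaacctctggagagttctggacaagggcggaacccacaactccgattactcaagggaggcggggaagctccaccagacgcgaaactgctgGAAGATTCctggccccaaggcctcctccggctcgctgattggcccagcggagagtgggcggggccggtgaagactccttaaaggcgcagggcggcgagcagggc
Dnaja1, chr4:40722218-40722467, plus strand, up to the start: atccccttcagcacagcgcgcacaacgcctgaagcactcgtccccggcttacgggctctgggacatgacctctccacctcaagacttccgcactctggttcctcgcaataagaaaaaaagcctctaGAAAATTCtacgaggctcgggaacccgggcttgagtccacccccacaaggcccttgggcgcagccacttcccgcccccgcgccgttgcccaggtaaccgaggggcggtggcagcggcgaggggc
Hspb1, chr5:135887669-135887918, plus strand, up to the start: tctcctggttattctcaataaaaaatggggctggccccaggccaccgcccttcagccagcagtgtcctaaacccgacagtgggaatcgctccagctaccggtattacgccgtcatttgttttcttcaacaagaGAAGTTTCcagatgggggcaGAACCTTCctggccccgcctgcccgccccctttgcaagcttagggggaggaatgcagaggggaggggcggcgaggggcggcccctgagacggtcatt

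Hsph1 had a core from -54 to -47 and, just past the start, a run of 3 alternating units from 16 to 28 (TTCNNGAANNTTC or GAANNTTCNNGAA). Such a run occurred in 0.603% of all windows and, of the 7 genes, in Hsph1 alone. Hsph1 has a further window that overlaps this one and holds the same elements, there from -33 to -26 and from 37 to 49. The count of windows with the core therefore includes these elements more than once. The cores lay from -104 to -97 in both Hspa1a and Hspa1b, from -124 to -117 in Dnaja1, and from -117 to -110 and -97 to -90 in Hspb1. Of the Dnaja1 windows only the one printed above held the core. In Bag3 the core lay behind the start, from 43 to 50. The windows of Hspa1a and Hspa1b were identical at 296 of 300 bases. Genes measured as lower and genes with estimates above 0 both held the core. As 6 of the 7 genes with a window held it, and Hspa8, Hsp90aa1 and Hsp90ab1 had no window, these windows could not decide whether the word separates them.

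Total counts ran from 1048201 to 5888102 per library with a median of 1975173, and hippocampus controls were the deepest group with a median of 3732867. Mitochondrial transcripts took 10.9% to 15.4% of the counts. The GFP row held 0 to 4 counts per library, with up to 2 in controls, so it gave no check of the genotype labels. In controls all 5 hippocampal marker genes were higher in hippocampus, while of 4 cortical markers 2 were lower and 1 was higher there. The summed cortical markers reached 5370 and 4488 CPM in the hippocampus libraries of GA-Camk2a mice 16 and 30 and 1527 CPM in that of control mouse 11, against 165 to 256 CPM in the other hippocampus libraries. Among these genes Rorb had a log2 fold change between genotypes in hippocampus of 1.2 (standard error 0.77). The standard errors of Fezf2, Tbr1 and Cux2 there were 0.13 to 0.16. In controls the Rorb estimate, hippocampus minus cortex, was 1.0 (standard error 0.55). The sums were not split by gene, and whether they reflect cortical tissue was not tested. Summed choroid plexus markers ran from 1818 to 32780 CPM in control hippocampus and from 1854 to 55590 CPM in GA-Camk2a hippocampus, and 0 of 6 of these genes were called between the genotypes. Of 4 haemoglobin genes tested, 3 were called higher in GA-Camk2a cortex and 0 in hippocampus. The part of these markers was not tested. Cell type markers differed between the genotypes: 4 of 6 excitatory neuron genes fell in GA-Camk2a cortex and 5 of 6 in GA-Camk2a hippocampus, while 6 of 8 microglial genes rose in both tissues and 5 and 6 of 8 astrocyte genes rose in cortex and hippocampus. The summed excitatory neuron markers ran from 1853 to 2347 CPM in control cortex and from 1195 to 1646 in GA-Camk2a cortex, and from 2051 to 2593 against 1084 to 1466 in hippocampus. None of the 6 markers, Slc17a7 and Camk2a among them, was at 0 in every library of a group. The part of these markers in the results below was not tested, and in whole tissue fewer cells of a type and less RNA per cell cannot be told apart. All 8 striatal markers fell in GA-Camk2a cortex, with sums of 854 to 1364 CPM in controls and 242 to 558 CPM in GA-Camk2a mice, and their part was not tested either.

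To ask whether poly-GA in excitatory neurons goes along with a change of the heat shock machinery, the genotypes were compared in each tissue. Hsph1 and the cytosolic HSP90 genes Hsp90aa1 and Hsp90ab1 fell in both tissues: Hsph1 to 0.712 of the control level in cortex and 0.592 in hippocampus, Hsp90aa1 to 0.760 and 0.818, and Hsp90ab1 to 0.793 and 0.734. Hspa8 and Dnaja1 fell in hippocampus, to 0.805 and 0.827. No gene of the set rose past the threshold in either tissue, and the estimates of Hspb1 and Bag3 lay above 0 in both. With edgeR's quasi-likelihood test and an adjusted p under 0.05 as the threshold, 3 of 10 genes were called lower in cortex, where 6.17% of all 13058 genes tested were called lower, and 5 of 10 in hippocampus, where 5.97% of 14884 were. The count called higher was 0 in each tissue, against 6.35% and 4.97% of all genes. DESeq2 and limma voom called 0 higher as well. At an unadjusted p under 0.05 the genes numbered 4 in cortex, Hspb1 among them, and 7 in hippocampus, where 25.9% and 24.7% of all genes were. The median log2 fold change of the 10 genes was -0.17 in cortex and -0.30 in hippocampus, beside medians over all genes of -0.01 and 0.02. All estimates below are log2 fold changes, GA-Camk2a minus control, with their standard error and batch as a covariate, and the fold is on the linear scale.

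**Figure D1:**
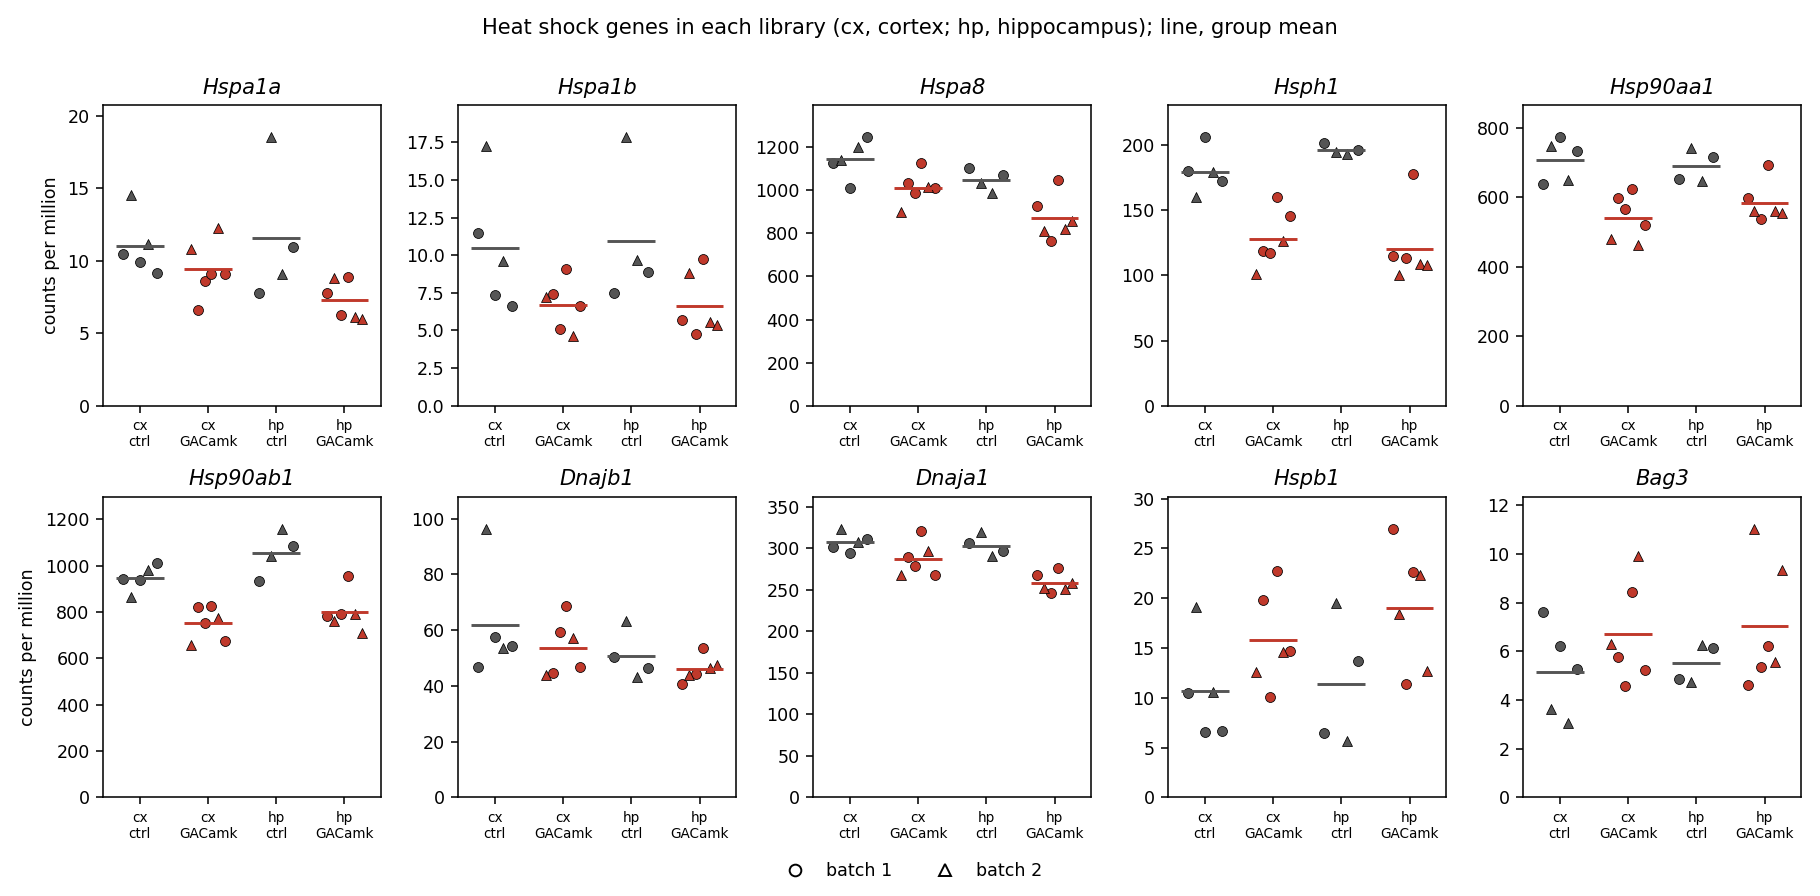
CPM (linear axis from 0, one scale per gene) of the 10 genes in each of the 21 libraries, by tissue (cx, cortex; hp, hippocampus) and genotype, with circles for batch 1, triangles for batch 2 and a line at the group mean. All GA-Camk2a libraries lie below all controls for Hsp90aa1 and Hsp90ab1 in cortex and for Hsph1 and Dnaja1 in hippocampus. Of all genes tested, 2.67% in cortex and 4.02% in hippocampus were separated in this direction.

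Hsph1 (ENSMUSG00000029657), whose product is the HSP110 nucleotide exchange factor of HSP70, had the lowest adjusted p of the set in both tissues. In control cortex it stood at 180.3, 159.9, 206, 179.7 and 173 CPM in mice 11, 20, 31, 37 and 38. The 6 GA-Camk2a cortex libraries ran from 101 to 160.5 CPM with a median of 123 CPM. Only the highest of them, from mouse 34, reached into the control range. The change was -0.49 ± 0.10 (0.712-fold, adjusted p = 0.00278), and the estimates of -0.45 within batch 1 (adjusted p = 0.0529) and -0.57 within batch 2 (adjusted p = 0.0861) were called in neither batch alone. In hippocampus the controls were close together at 202, 194, 193 and 196 CPM in mice 11, 20, 31 and 37, and the GA-Camk2a libraries ran from 99.9 to 178 CPM with a median of 111 CPM. Here the groups did not overlap, as they did not for 4.02% of all genes in the lower direction, although mouse 34 at 178 CPM stood far above the other GA-Camk2a mice, the next of which was at 115 CPM. The change was -0.76 ± 0.12 (0.592-fold, adjusted p = 0.000653). It was called with each of the 10 libraries left out in turn and in batch 2 alone (-0.93, adjusted p = 0.000844), whereas batch 1 alone gave -0.60 and an adjusted p of 0.219.

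Hspa8 (ENSMUSG00000015656) encodes HSC70, the constitutive HSP70 that also strips clathrin from synaptic vesicles. Control cortex held 1128, 1139, 1009, 1203 and 1246 CPM, and GA-Camk2a cortex ran from 899 to 1128 CPM with a median of 1012 CPM. The ranges overlapped, and the estimate of -0.18 ± 0.09 was not called (adjusted p = 0.224, 95% interval -0.36 to 0.01). Control hippocampus held 1105, 1036, 986 and 1072 CPM, and GA-Camk2a hippocampus ran from 766 to 1048 CPM with a median of 839 CPM. Of the 6 GA-Camk2a libraries 5 lay below every control, and mouse 34 did not. Hspa8 fell by 0.31 ± 0.08 on the log2 scale (adjusted p = 0.0258). That call was lost when any 1 of the 4 hippocampus controls was left out (adjusted p from 0.0511 to 0.0916) and in each batch alone (-0.29 and -0.35). Of the 50-base words in the last 500 bases of its transcript, the stretch that 3' reads cover, 90.2% also occur in other annotated genes, so its counts are uncertain.

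Hspa1a (ENSMUSG00000091971) and Hspa1b (ENSMUSG00000090877), the near-identical genes of inducible HSP70, were low, with 8 to 109 counts per library. Hspa1a stood at 10.5, 14.5, 9.89, 11.1 and 9.14 CPM in control cortex and between 6.60 and 12.2 CPM in GA-Camk2a cortex, a median of 9.10 CPM. Hspa1b stood at 11.4, 17.3, 7.33, 9.62 and 6.65 CPM in control cortex and between 4.66 and 9.10 CPM in GA-Camk2a cortex, a median of 6.92 CPM. Both ranges overlapped, and neither estimate was called (-0.16 ± 0.19, adjusted p = 0.683, and -0.45 ± 0.26, adjusted p = 0.301). In control hippocampus Hspa1a was at 7.80, 18.5, 9.12 and 10.9 CPM and Hspa1b at 7.47, 17.8, 9.69 and 8.89 CPM, and in both the high value was mouse 20. GA-Camk2a hippocampus ran from 6.0 to 8.87 CPM for Hspa1a, a median of 7.04 CPM, and from 4.78 to 9.76 CPM for Hspa1b, a median of 5.62 CPM. The estimates were -0.74 ± 0.25 (adjusted p = 0.0707, 95% interval -1.27 to -0.21) and -0.79 ± 0.27 (adjusted p = 0.0723, -1.36 to -0.22). Neither was called. Without control mouse 20 the estimates were -0.39 (adjusted p = 0.366) and -0.45 (adjusted p = 0.367). Both were called with no filter on low counts (adjusted p = 0.0134 and 0.0106) and without GA-Camk2a mouse 34, Hspa1a without control mouse 11 (adjusted p = 0.0449) and Hspa1b with limma voom (adjusted p = 0.0469). Both estimates were steeper in batch 2 (-1.2 and -1.27), which holds control mouse 20, than in batch 1 (-0.37 and -0.37).

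Because the coding regions of this pair are alike, their counts were also summed, an alternative chosen after the data were seen. The last 500 bases of the 2 transcripts shared no 50-base word. The sum came to 21.5 ± 6.28 CPM (SD, n = 5) in control cortex, 16.1 ± 1.94 (n = 6) in GA-Camk2a cortex, 22.6 ± 9.40 (n = 4) in control hippocampus and 13.97 ± 3.34 (n = 6) in GA-Camk2a hippocampus, from 17 to 214 counts per library. For the sum the hippocampal change was -0.75 ± 0.23 and was called (adjusted p = 0.0483). The cortical estimate was -0.30 ± 0.17 and was not called (adjusted p = 0.284). Of the 10 hippocampal fits with a single library removed, 7 gave no call. The call was kept without control mouse 11 or 31 and without GA-Camk2a mouse 34. Without control mouse 20 the estimate was -0.41 with an adjusted p of 0.268, and in the other 6 fits with no call it ran from -0.67 to -0.80 with adjusted p from 0.0595 to 0.107. Within batch 1 it was -0.36 with an adjusted p of 0.636, and within batch 2, which holds mouse 20, -1.22 with an adjusted p of 0.0316.

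Hsp90aa1 (ENSMUSG00000021270), the inducible cytosolic HSP90, was measured in control cortex at 636, 747.5, 772, 649 and 734 CPM. GA-Camk2a cortex ran from 461 to 623 CPM with a median of 543 CPM, so that all 6 libraries lay below the 5 controls, a separation seen in the lower direction for 2.67% of all genes. The change was -0.40 ± 0.09 (0.760-fold, adjusted p = 0.00371), with -0.30 in batch 1 (adjusted p = 0.138) and -0.57 in batch 2 (adjusted p = 0.0341). In hippocampus the controls stood at 653, 741, 647 and 716 CPM, and GA-Camk2a mice ran from 536 to 691 CPM with a median of 559 CPM. Mouse 34, at 691 CPM, was the only GA-Camk2a library inside the control range. The hippocampal change of -0.29 ± 0.09 was narrowly past the threshold (adjusted p = 0.0451). It lost its call in 8 of the 10 fits that left out 1 library (adjusted p up to 0.171, without control mouse 20), without the batch term (0.0514), with upper quartile scaling (0.0548) and in each batch alone (0.591 and 0.0982).

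Hsp90ab1 (ENSMUSG00000023944), the constitutive HSP90, fell in both tissues. Control cortex held 942, 866, 937, 982 and 1010 CPM, and GA-Camk2a cortex ran from 658 to 824 CPM with a median of 764 CPM. Again all 6 libraries lay below the 5 controls, as for 2.67% of all genes. It fell by 0.34 ± 0.09 on the log2 scale (0.793-fold, adjusted p = 0.0121), with estimates of -0.32 in batch 1 and -0.37 in batch 2 that passed in neither alone. Control hippocampus held 933, 1042, 1157 and 1085 CPM, and GA-Camk2a hippocampus ran from 709 to 954 CPM with a median of 786.5 CPM. Mouse 34 at 954 CPM lay above control mouse 11 at 933 CPM, and the other 5 GA-Camk2a libraries lay below all controls. The change was -0.45 ± 0.09 (0.734-fold, adjusted p = 0.00643) and was called with each library left out in turn. Within batch 2 it was -0.60 (adjusted p = 0.0147) and within batch 1 -0.30 (adjusted p = 0.439).

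Of the J protein genes, Dnaja1 was called in hippocampus. Dnaja1 (ENSMUSG00000028410) encodes a farnesylated partner of HSC70 and stood at 302, 323, 294, 307 and 311 CPM in control cortex and from 268 to 322 CPM in GA-Camk2a cortex, with a median of 284 CPM. The cortical estimate was -0.09 ± 0.08 (adjusted p = 0.543, 95% interval -0.26 to 0.08). In hippocampus the controls were at 307, 319, 291 and 296 CPM and the GA-Camk2a libraries ran from 246 to 276 CPM with a median of 255 CPM. All 6 lay below the 4 controls, a separation seen in the lower direction for 4.02% of all genes. The change was -0.27 ± 0.07 (0.827-fold, adjusted p = 0.0255). The call did not hold without control mouse 20 (adjusted p = 0.107), without control mouse 11 (0.0505), with counts thinned to the smallest library (0.0501) or within either batch (-0.23 and -0.33). The whole last 500 bases of Dnaja1 overlap Smu1 on the opposite strand, and whether the authors' counting used strand is not given in the sources used here, so the counts of Dnaja1 are uncertain too. Smu1 itself ran from 42.4 to 77.5 CPM and had estimates of 0.21 in cortex (adjusted p = 0.281) and -0.01 in hippocampus (adjusted p = 0.976).

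Dnajb1 (ENSMUSG00000005483), the stress-inducible J protein HSP40, was at 46.7, 96.3, 57.5, 53.7 and 54.3 CPM in control cortex, where mouse 20 stood far above the rest. GA-Camk2a cortex ran from 44.0 to 68.9 CPM with a median of 52.0 CPM. The estimate of -0.15 ± 0.15 was not called (adjusted p = 0.590), and without control mouse 20 it was 0.02. In hippocampus the controls stood at 50.3, 63.2, 43.3 and 46.5 CPM, mouse 20 again the highest, and GA-Camk2a mice ran from 40.8 to 53.7 CPM with a median of 45.2 CPM. The hippocampal estimate was -0.20 ± 0.12 (adjusted p = 0.327, 95% interval -0.46 to 0.06), and without control mouse 20 it was -0.06 (adjusted p = 0.828).

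Hspb1 (ENSMUSG00000004951) encodes HSP25, a small heat shock protein that reactive astrocytes are known to carry. It was low, at 10.5, 19.1, 6.60, 10.6 and 6.65 CPM in control cortex and from 10.1 to 22.7 CPM in GA-Camk2a cortex, with a median of 14.6 CPM. The ranges overlapped, as the controls at 10.5, 10.6 and 19.1 CPM lay above the lowest GA-Camk2a library, and mouse 20 was the highest control. The cortical estimate of 0.78 ± 0.26 (1.72-fold, 95% interval 0.24 to 1.32) missed the threshold (adjusted p = 0.0543). It passed without control mouse 20 (0.99, adjusted p = 0.0132), without GA-Camk2a mouse 16, 30 or 35, with no filter on low counts (adjusted p = 0.0223) and with upper quartile scaling (0.0446). The batches differed, with 1.2 in batch 1 (adjusted p = 0.0166) and -0.02 in batch 2 (adjusted p = 0.993). In hippocampus the controls were at 6.5, 19.5, 5.70 and 13.7 CPM and GA-Camk2a mice ran from 11.3 to 26.9 CPM with a median of 20.3 CPM, an estimate of 0.58 ± 0.32 (adjusted p = 0.289, 95% interval -0.11 to 1.28). With counts thinned to the smallest library it was called higher there (1.04, adjusted p = 0.0404), and without control mouse 20 it was 1.08 (adjusted p = 0.0738). Without control mouse 11 it was 0.35 (adjusted p = 0.588), and batch 2 alone gave 0.21 (adjusted p = 0.838). A pseudogene, Hsp25-ps1, shares 16% of the end of its transcript and was at most 5.39 CPM in any library.

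Bag3 (ENSMUSG00000030847), which links HSP70 and small heat shock proteins to autophagy, was low, with 4 to 28 counts per library. Control cortex stood at 7.63, 3.63, 6.23, 3.04 and 5.26 CPM and GA-Camk2a cortex ran from 4.56 to 9.91 CPM, with a median of 6.04 CPM. In hippocampus the controls were at 4.87, 4.76, 6.27 and 6.16 CPM and GA-Camk2a mice ran from 4.61 to 11.02 CPM, with a median of 5.89 CPM. The groups overlapped in both tissues, and the estimates of 0.36 ± 0.28 (adjusted p = 0.462, 95% interval -0.23 to 0.94) and 0.25 ± 0.24 (adjusted p = 0.580, -0.27 to 0.77) left changes in either direction possible at this depth.

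**Figure D2:**
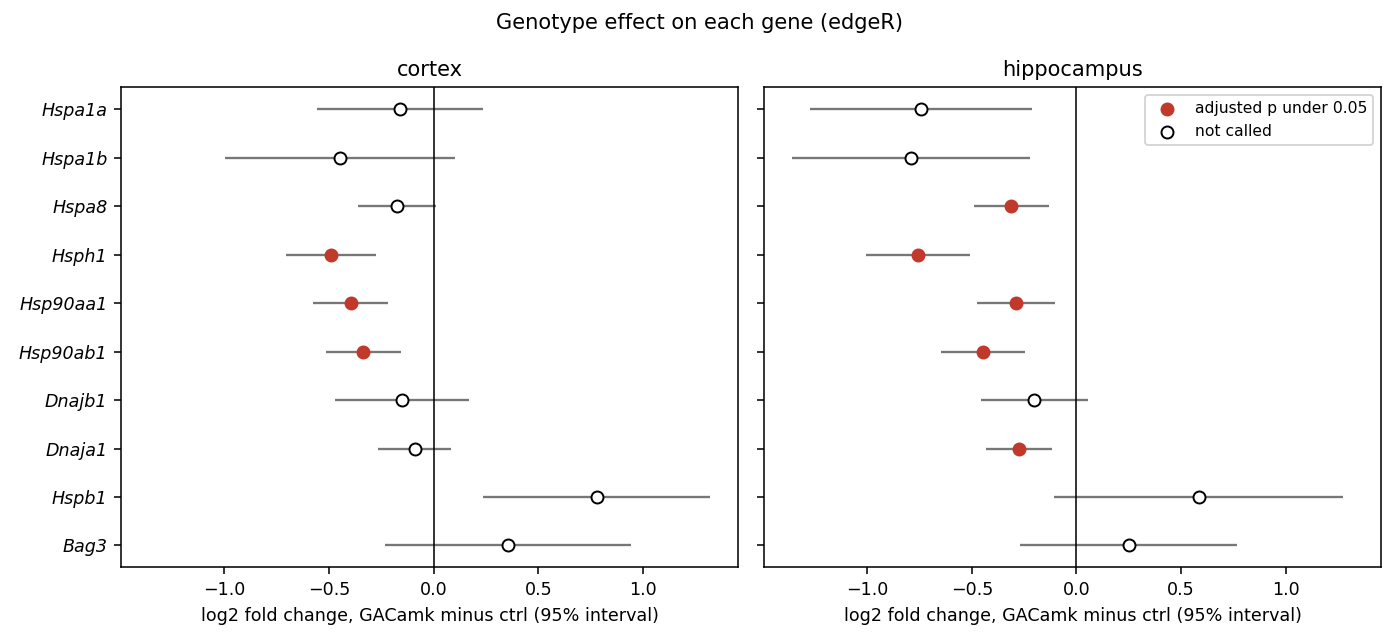
Log2 fold change (GA-Camk2a minus control, edgeR with batch as covariate) of the 10 genes in cortex and hippocampus with 95% intervals. Filled points passed an adjusted p of 0.05: Hsph1, Hsp90aa1 and Hsp90ab1 in cortex, and these 3 with Hspa8 and Dnaja1 in hippocampus.

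Whether the genotype effect differed between the tissues was tested as an interaction over all 21 libraries. With edgeR 0 of the 10 genes passed and 0 were under an unadjusted p of 0.05, while 0.4% of all 14751 genes were called and 10% were under that unadjusted p. DESeq2 and limma voom also called 0. DESeq2 with batch gave no adjusted p for Hspa1a, Hspa1b, Hspb1 and Bag3, and without batch none for Bag3, so its count does not cover these genes. The lowest p belonged to Hspa1a, with a difference, hippocampus minus cortex, of -0.57 ± 0.30 (edgeR adjusted p = 0.544, 95% interval -1.2 to 0.05). For Hsph1 the difference was -0.28 ± 0.16 (95% interval -0.61 to 0.05) and for Dnaja1 -0.19 ± 0.11 (-0.41 to 0.02). The calls of Hspa8 and Dnaja1 in hippocampus but not in cortex therefore came without a shown difference between the tissues. Fitting the mouse as a block left the count at 0.

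The level in control mice was compared between hippocampus and cortex to give the baseline. With edgeR 0 of 10 genes were called and 0 were under an unadjusted p of 0.05, while 16.3% of 14435 genes were called and 30.4% were under that unadjusted p. The estimates, hippocampus minus cortex, ran from -0.31 ± 0.16 for Dnajb1 (adjusted p = 0.199) to 0.26 ± 0.32 for Hspb1 (adjusted p = 0.639). DESeq2 also called 0. Hspa8 was the gene that 2 alternatives called, at -0.20 with limma voom (adjusted p = 0.0397) and at -0.24 without the cortex library of control mouse 31 (adjusted p = 0.0327).

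Single mice stood out in both of their tissues. For each of mice 20 and 34 both libraries share a batch, so mouse and shared batch cannot be told apart. Among the 4 control mice with both tissues, mouse 20 was the highest in cortex and in hippocampus for 5 of the 10 genes: Hspa1a, Hspa1b, Dnajb1, Dnaja1 and Hspb1. The share of all genes for which mouse 20 was the highest in both tissues was not counted. The summed Hspa1a and Hspa1b of this mouse was 31.8 CPM in cortex and 36.3 CPM in hippocampus. The other controls lay at 15.8 to 22.0 CPM in cortex and 15.3 to 19.8 CPM in hippocampus. Its cortex library, with 1100982 counts, was among the shallowest of the series, and its hippocampus library, with 5888102 counts, was the deepest. Its endoplasmic reticulum chaperones were the highest of the controls in both tissues (722 and 859 CPM), and so were its choroid plexus markers in hippocampus (32780 CPM). Its summed immediate early genes were the third highest of 5 in cortex and the lowest of 4 in hippocampus (498 and 251 CPM). Both of its libraries belonged to batch 2.

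Among the 6 GA-Camk2a mice, mouse 34 was the highest in both tissues for 7 of the 10 genes: Hspa1b, Hspa8, Hsph1, Hsp90aa1, Hsp90ab1, Dnajb1 and Dnaja1. The share of all genes for which mouse 34 was the highest in both tissues was not counted, so this count describes the mouse without a baseline. Its Hsph1 level was 160.5 CPM in cortex and 178 CPM in hippocampus, against at most 146 and 115 CPM in the other GA-Camk2a mice. The same mouse had the highest summed excitatory neuron markers of its genotype, 1646 CPM in cortex and 1466 CPM in hippocampus, and the highest summed immediate early genes, 384 and 284 CPM. Of the wider chaperone lists described below, the HSP90 co-chaperones (844 and 836 CPM), the mitochondrial chaperones (551.5 and 548 CPM) and the endoplasmic reticulum chaperones (744.5 and 872 CPM) were also highest in this mouse among GA-Camk2a mice in both tissues. Its astrocyte markers were the highest of 6 in hippocampus (5055 CPM) and the fourth in cortex (3124 CPM). Its cortex library had choroid plexus markers of 8198 CPM, against at most 2727 CPM in the other GA-Camk2a cortex libraries, and blood markers of 2214 CPM against at most 1589 CPM. In hippocampus it also had the lowest Hspb8 of the GA-Camk2a mice, 28.8 CPM. The part of these values in its heat shock gene levels was not tested. Both of its libraries belonged to batch 1, and leaving out its hippocampus library raised the number of called genes from 5 to 7, with Hspa1a (-0.84, adjusted p = 0.0469) and Hspa1b (-0.996, adjusted p = 0.0158) added.

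**Figure D3:**
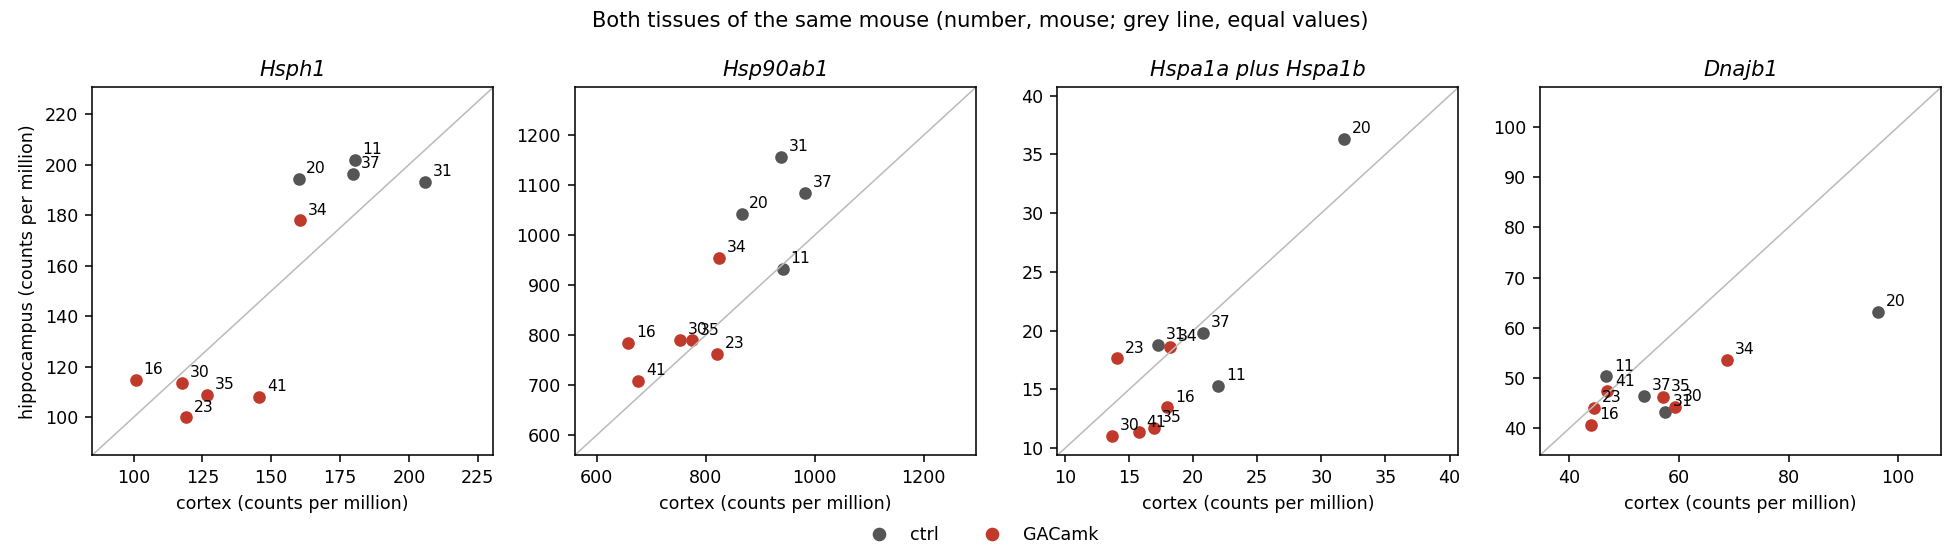
Hippocampus against cortex (both in CPM) for the 10 mice with both tissues, with mouse numbers, grey points for controls, red points for GA-Camk2a mice and a grey line of equal values. Control mouse 20 lies apart for Hspa1a plus Hspa1b (31.8 and 36.3 CPM) and for Dnajb1, and GA-Camk2a mouse 34 lies next to the controls for Hsph1 and Hsp90ab1.

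The wider chaperone network was read from 9 lists of 75 other genes. In cortex 69 of them were tested, 3 fell and 4 rose, and in hippocampus 68 were tested, 3 fell and 1 rose, shares below those of all genes in either direction. Their median log2 fold change was -0.07 in cortex and -0.10 in hippocampus. The gene that rose in both tissues was Hspb8, a small heat shock protein gene. Its product forms a complex with Bag3. Hspb8 was at 13.4 to 18.2 CPM in control cortex and 23.3 to 33.8 CPM in GA-Camk2a cortex, and at 18.2 to 27.8 CPM against 28.8 to 51.1 CPM in hippocampus. The groups overlapped in neither tissue, as they did not in the higher direction for 3.5% of all genes in cortex and 5.6% in hippocampus, and the changes were 0.96 ± 0.15 (adjusted p = 1.37e-04) and 0.96 ± 0.18 (adjusted p = 0.00256). Hspb8 was called in 19 of 20 alternatives in cortex and 18 of 19 in hippocampus.

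Hspb6 rose in cortex (0.67 ± 0.18, adjusted p = 0.0162), from 7.27 to 11.4 CPM in controls to 12.95 to 19.3 CPM in GA-Camk2a mice, and had an estimate of 0.75 ± 0.25 in hippocampus that was not called (adjusted p = 0.0676). The cortical call of Hspb6 was kept in 15 of 20 alternatives. Cryab, the alpha B-crystallin gene, rose in cortex by 0.35 ± 0.11 (adjusted p = 0.0447), a call kept in 7 of 20 alternatives, and had an estimate of 0.32 ± 0.15 in hippocampus (adjusted p = 0.208). Of the 6 small heat shock protein genes listed beside Hspb1, 4 were tested in cortex and 3 of these rose, while Hspb3 had an estimate of -0.03. In hippocampus 3 were tested and 1 rose, and Hspb3 was not tested. Beside them, the summed astrocyte markers ran from 1599 to 2363 CPM in control cortex and 2354 to 3848 CPM in GA-Camk2a cortex, and from 2113 to 2455 CPM against 3617 to 5055 CPM in hippocampus. Mural cell markers were called higher for 3 of 6 genes in cortex and 3 of 8 in hippocampus. Their part in the small heat shock protein values was not tested.

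The genes that fell in both tissues were Dnajc6 and Dnajb5, both of J proteins. Dnajc6 encodes auxilin, the neuronal J protein that recruits HSC70 to clathrin-coated vesicles, and fell by 0.39 ± 0.09 in cortex (adjusted p = 0.00658) and 0.44 ± 0.11 in hippocampus (adjusted p = 0.0138) on the log2 scale. All GA-Camk2a libraries lay below all controls in both tissues, at 73.7 to 84.6 against 94.4 to 129 CPM in cortex and 63.0 to 107 against 115 to 136 CPM in hippocampus. In this direction 2.67% of all genes were separated in cortex and 4.02% in hippocampus. Dnajb5 fell by 0.55 ± 0.16 (adjusted p = 0.0293) and 0.43 ± 0.11 (adjusted p = 0.0225). Its call was kept in 8 of 20 alternatives in cortex and 13 of 19 in hippocampus, against 19 and 16 for Dnajc6, and its cortical values varied widely within each genotype (57.7 to 115 CPM in controls and 36.1 to 104 CPM in GA-Camk2a mice). The other calls came in 1 tissue each: Hspa2 at 0.36 and the endoplasmic reticulum HSP90 gene Hsp90b1 at -0.28 in cortex, and the HSP90-binding immunophilin gene Fkbp4 at -0.30 in hippocampus. Each of these 3 kept its call in at most 7 of the alternatives. The other HSP110 genes, Hspa4 and Hspa4l, were called in neither tissue, with estimates of -0.06 and -0.25 in cortex (adjusted p = 0.757 and 0.132) and -0.01 and -0.13 in hippocampus (0.983 and 0.477). Hsf1, the main heat shock factor, had estimates of -0.02 ± 0.18 in cortex (95% interval -0.39 to 0.34) and 0.05 ± 0.14 in hippocampus (-0.26 to 0.35).

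**Figure D4:**
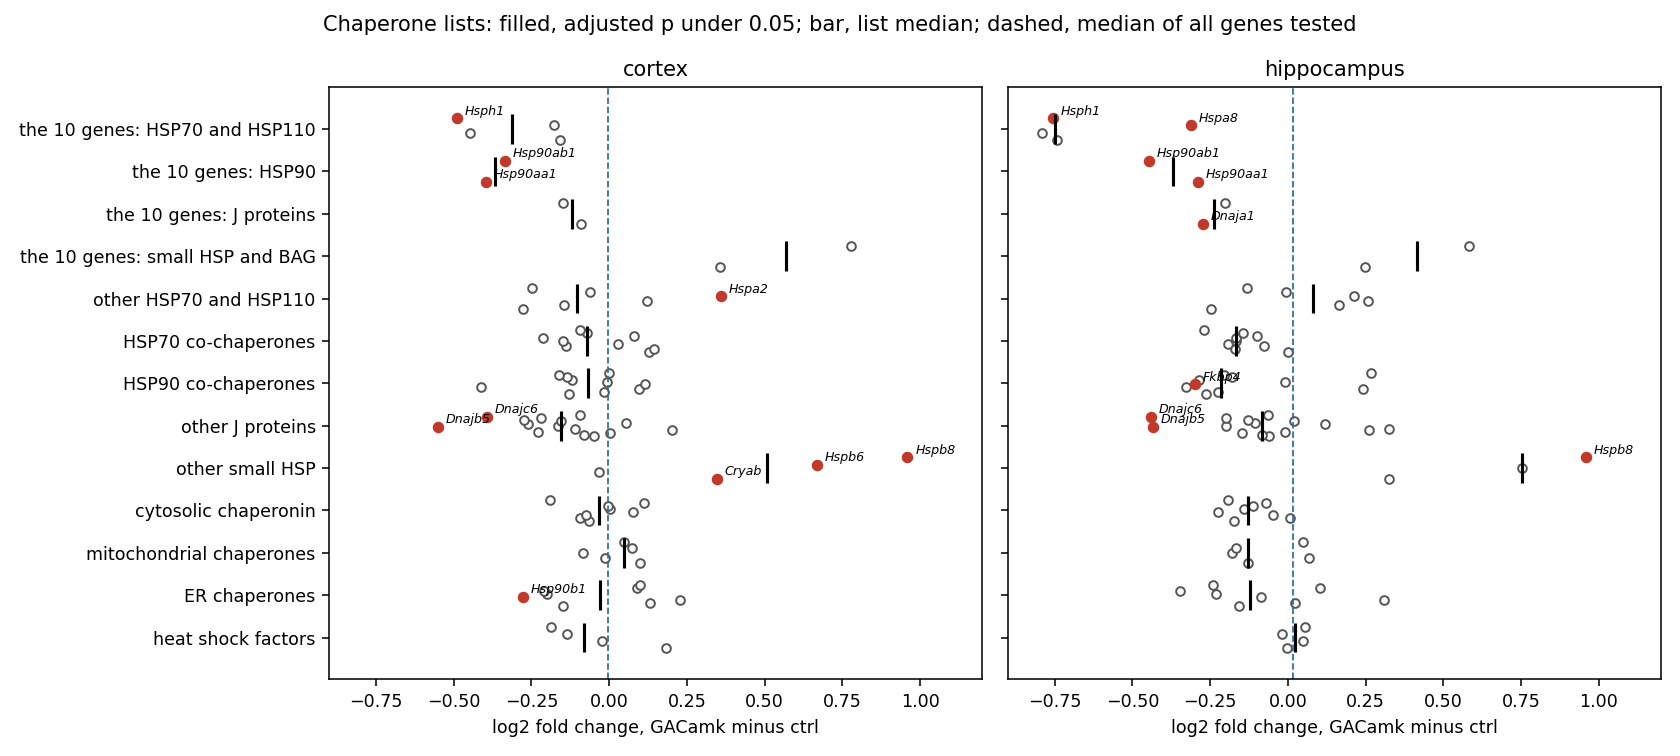
Log2 fold changes (GA-Camk2a minus control) of single genes in the 10-gene set, split by family, and in 9 wider chaperone lists, with filled points for an adjusted p under 0.05, a bar at each list's median and a dashed line at the median of all genes tested. Hsph1, Hsp90aa1 and Hsp90ab1 lie below 0 and Hspb8, Hspb6, Cryab and Hspb1 above 0 in both tissues.

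The genes whose profile over the 21 libraries was nearest to that of Hsph1 were sought among 12916 genes tested in both tissues. The measure was the root mean square distance of log2 CPM centred on each gene's mean, set beside a standard deviation of 0.37 for Hsph1 itself. The nearest were Nefl, the neurofilament light chain gene, at 0.121, then Hpcal4 at 0.170, Trim37 at 0.180, Pnmal1 at 0.190 and Ywhag at 0.191. Because the profile of Hsph1 holds its own fall, genes near it were bound to be lower in GA-Camk2a tissue, and their estimates are given as a description with no test. They ran from -0.32 to -0.53 in cortex and from -0.48 to -0.79 in hippocampus, with Nefl at -0.48 and -0.69.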

How the data were processed

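RNA from cortex and hippocampus was measured with prime-seq, which reads the 3' ends of polyadenylated transcripts. The authors counted with zUMIs 2.9.7e on GRCm39 after demultiplexing, and they deposited raw integer counts for every gene in every library. FastQC 0.11.8, cutadapt 1.12, STAR and DESeq2 1.44 stand in the submitters' processing notes. Whether molecules or reads were counted, the annotation release and the use of strand are not given in the sources used here. If reads were counted, counting error understates the technical error.

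Symbols came from a GENCODE annotation of GRCm38, matched on Ensembl numbers for 43308 of 64362 rows (96.1% of counts). The GFP row stayed out of totals and tests. CPM used the total count of each library. The tests were edgeR 4.0.16 (R 4.3.3) quasi-likelihood F-tests with TMM, a minimum count of 10 in filterByExpr and batch, adjusted by Benjamini-Hochberg over all genes, and were tested on simulated data. The study names DESeq2, which was run with and without batch as an alternative (DESeq2 1.42.0), as was limma 3.58.1. Total counts of 1048201 to 5888102 limit the precision of low genes. Of 46 library pairs within groups 0 were identical (chi-square per degree of freedom 2.1 to 15.1), and 0 columns were unused. P-values measure the spread between mice of a pair of litters. The mouse number in the titles pairs the tissues. Deviations from the group means of the same mouse correlated at -0.23 to 0.29 over 14751 genes. The correlations were 0.14 to 0.29 in mice 11, 20, 30, 34 and 35, whose libraries share a batch. They were -0.23 to -0.07 in mice 16, 23, 31, 37 and 41, whose libraries lie in different batches. Mouse and shared batch cannot be told apart in these values, so they give no check of the pairing. Genotypes share no mouse.

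The members and lists were chosen with earlier results of these data known. Named genes were all 10 members, up to 3 called genes per wider list and tissue with the lowest adjusted p, and the 5 genes nearest in profile to the member with the lowest adjusted p. Promoter sequences are RefSeq's (GRCm38.p6), and shared ends were searched in GENCODE transcripts of GRCm38 as 50-base words.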

Additional observations from a re-analysis of the deposited data

Results flagged for a closer look

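Each of the 10 genes was tested in each of the 4 groups for a highest or lowest library that stands apart, by the gap to its neighbour as a share of the group's range. Of 40 such tests 3 were past the 95% limit, and chance alone gives about 1 in 20. In GA-Camk2a hippocampus the gap of mouse 34 above the next library took 0.808 of the range for Hsph1 (178 CPM against 115 CPM) and 0.664 for Hsp90ab1 (954 CPM against 791 CPM). In control cortex the gap of mouse 20 took 0.782 of the range for Dnajb1 (96.3 CPM against 57.5 CPM).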

How the results depend on the processing

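Of the single-gene values for the genotype effects, 182 of 198 in cortex and 154 of 187 in hippocampus kept their direction and their side of the threshold over the alternatives run. The count of called genes in cortex was 3 and became 1 in batch 1 alone (Hspb1, higher) and 1 in batch 2 alone (Hsp90aa1). With 1 library left out it ran from 3 to 4. In hippocampus it was 5 and became 0 in batch 1 alone (1 at an unadjusted p under 0.05, Hsph1, with edgeR) and 2 in batch 2 alone (Hsph1 and Hsp90ab1). With 1 library left out it ran from 2 to 7: 2 without control mouse 20 (Hsph1 and Hsp90ab1), and 3 without control mouse 31 or 37 (with Dnaja1). With thinned counts Bag3, and in hippocampus also Hspa1a and Hspa1b, did not pass the filter and gave no value. Single batches hold fewer samples, and other causes were not tested. The tissue comparison in controls had 0 calls, with limma voom 1 and, with 1 library left out, 0 to 1. The interaction had 0 calls in every alternative. The mouse as a replicate block changed no call in the interaction or the tissue comparison. No paired analysis was possible between genotypes because they share no mouse.

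Signs turned only in values that were not called. In cortex these were Dnajb1 (0.0315 in batch 1, -0.229 to 0.0167 with 1 library left out), Hspb1 (-0.0151 in batch 2) and Bag3 (-0.0253 in batch 1). In hippocampus it was Bag3 (-0.0933 in batch 1). In the interaction, leaving out 1 library gave -0.532 to 0.0197 for Hspa1b, -0.233 to 0.0816 for Dnajb1, -0.418 to 0.282 for Hspb1 and -0.254 to 0.0407 for Bag3, the replicate block gave 0.0419 for Dnajb1 and 0.391 for Hspb1, and Hspb1 was 0.00171 and 0.019 with DESeq2 with and without batch and 0.4897 with thinned counts. In the tissue comparison, leaving out 1 library gave -0.181 to 0.205 for Hspa1a, -0.104 to 0.257 for Hspa1b, -0.0569 to 0.464 for Hspb1 and -0.018 to 0.2597 for Bag3. There the replicate block gave -0.0522 for Hspa1a, -0.0749 for Hspa1b and -0.124 for Hspb1, thinned counts gave -0.0504 for Hspa1b and -0.413 for Hspb1, and batch 1 alone gave -0.0531 for Hspa1a and -0.143 for Bag3.

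Counts over all genes moved by more than 1.5 times with thinned counts (1635 to 1057 in cortex, 1628 to 894 in hippocampus, 59 to 26 in the interaction, 2351 to 1354 between tissues), without control mouse 31 (1038 in cortex, 1038 in hippocampus), without control mouse 20 in hippocampus (1082) and in single batches (876 and 230 in cortex, 115 and 681 in hippocampus, 1241 and 1314 between tissues). The interaction count of 59 ranged from 22 to 159. Genes near 10 CPM rest on few counts, and Dnaja1 in GA-Camk2a hippocampus was the one of 40 group means to move by over 1 SD with TMM library sizes (259 to 245 CPM).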
